A study of Mus musculus with 28 samples.

Results

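The subunits of the respiratory chain that are encoded in the nucleus were examined in single first molar tooth germs of the mouse. Members were the protein-coding nuclear genes of the HTSeq count table whose symbol begins with Ndufa, Ndufb, Ndufc, Ndufs or Ndufv and a number, Sdha to Sdhd, Uqcr, Cox4 to Cox8, or Atp5 in the GRCm38 annotation. The rule used names and no measured values. It gave 84 of the 52636 genes, with 37 in complex I, 4 in complex II, 8 in complex III, 18 in complex IV, and 17 in complex V. Of 97 symbol matches, 12 were left out as pseudogenes or noncoding genes and 1 because it was not in the count table. A filter on low counts kept 80 members among 19101 genes, and the other 4 members were Cox6a2, Cox7b2, Cox8b, and Cox8c.

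The tooth germs were wild type, from C57BL/6JOlaHsd mice, and were taken as the bud (E13, labelled E13.5), cap (E14, labelled E14.5), and bell (E16, labelled E16.5) stages. There were 7 teeth for each stage, from 7, 6, and 5 embryos, and every library came from a single left or right tooth germ. A further age, E15, was measured only in a second table, which also holds E13 and E16 teeth. It has 6 E15 columns for 7 E15 samples, and the E15 values stand apart from these comparisons. Epithelium and mesenchyme were not separated, so a level is an average over all cells of the germ, in which fewer cells of a type and less RNA per cell cannot be told apart. Teeth of the same embryo are not independent animals, and p values measure the spread between teeth.

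The respiratory chain of the inner mitochondrial membrane passes electrons from NADH through complex I, or from succinate through complex II, to complex III and then to complex IV, where oxygen is reduced. The proton gradient that this builds drives the ATP synthase, complex V. Complexes I, III, IV, and V also hold subunits that the mitochondrial genome encodes, and several subunits of complex IV have isoforms that are known from muscle, lung, testis, or cells at low oxygen.

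The libraries held between 17814073 and 27115729 counts. All 6 markers of the dental epithelium and all 6 markers of the dental mesenchyme passed the filter, and the summed levels were 485 to 759 and 2067 to 2516 CPM (counts scaled to library size by TMM) at E13. Epithelial markers summed to 952 to 1228 CPM at E14 and 1231 to 2449 CPM at E16, and mesenchymal markers to 2173 to 2327 and 779 to 1938 CPM. Both low values at E16 came from the left tooth of embryo 3, and the other 6 teeth were at 1998 to 2449 and 1665 to 1938 CPM. The fewest counts were those of an E16 tooth, the left of embryo 3, which stood apart from the other 6 teeth of its stage. In this tooth 16.3% of other protein-coding genes were lower by more than 1 on the log2 scale than the mean of the other E16 teeth and 2.32% were higher, and among the members 14 of 80 were lower (17.5%) and 1 was higher (1.25%). The lower members included Atp5d, Ndufa4l2, Atp5a1, and Cox4i1, by 1.98, 1.87, 1.68, and 1.63 on the log2 scale, and the higher member was Ndufa2. These members were chosen after their values were seen.

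The members together took between 0.36% and 0.53% of the counts of a tooth. The summed level of the members was 3737 to 4118 CPM at E13 with a median of 4009 CPM, 3800 to 5370 CPM at E14 with a median of 4059 CPM, and 3739 to 5240 CPM at E16 with a median of 4284 CPM. The ranges of the stages overlapped, and the E13 teeth were closest to each other. Per length of mRNA, the highest level of each complex over the 21 teeth was 85.0 CPM per kb for Ndufa3, an accessory subunit of complex I, 47.8 CPM per kb for Sdhb, the iron-sulfur subunit of complex II, and 104 CPM per kb for Uqcrh, the hinge protein of complex III. In complex IV it was 186 CPM per kb for Cox4i1, the common isoform of subunit 4, and in complex V 223 CPM per kb for Atp5b, the catalytic beta subunit. The median over the members of a complex was 34.5 CPM per kb for complex I, 41.1 for complex II, 60.6 for complex III, 39.2 for complex IV, and 95.6 for complex V. The value for complex IV includes the isoforms known from single tissues, and its 11 common isoforms alone had a median of 85.8 CPM per kb.

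**Figure D1:**
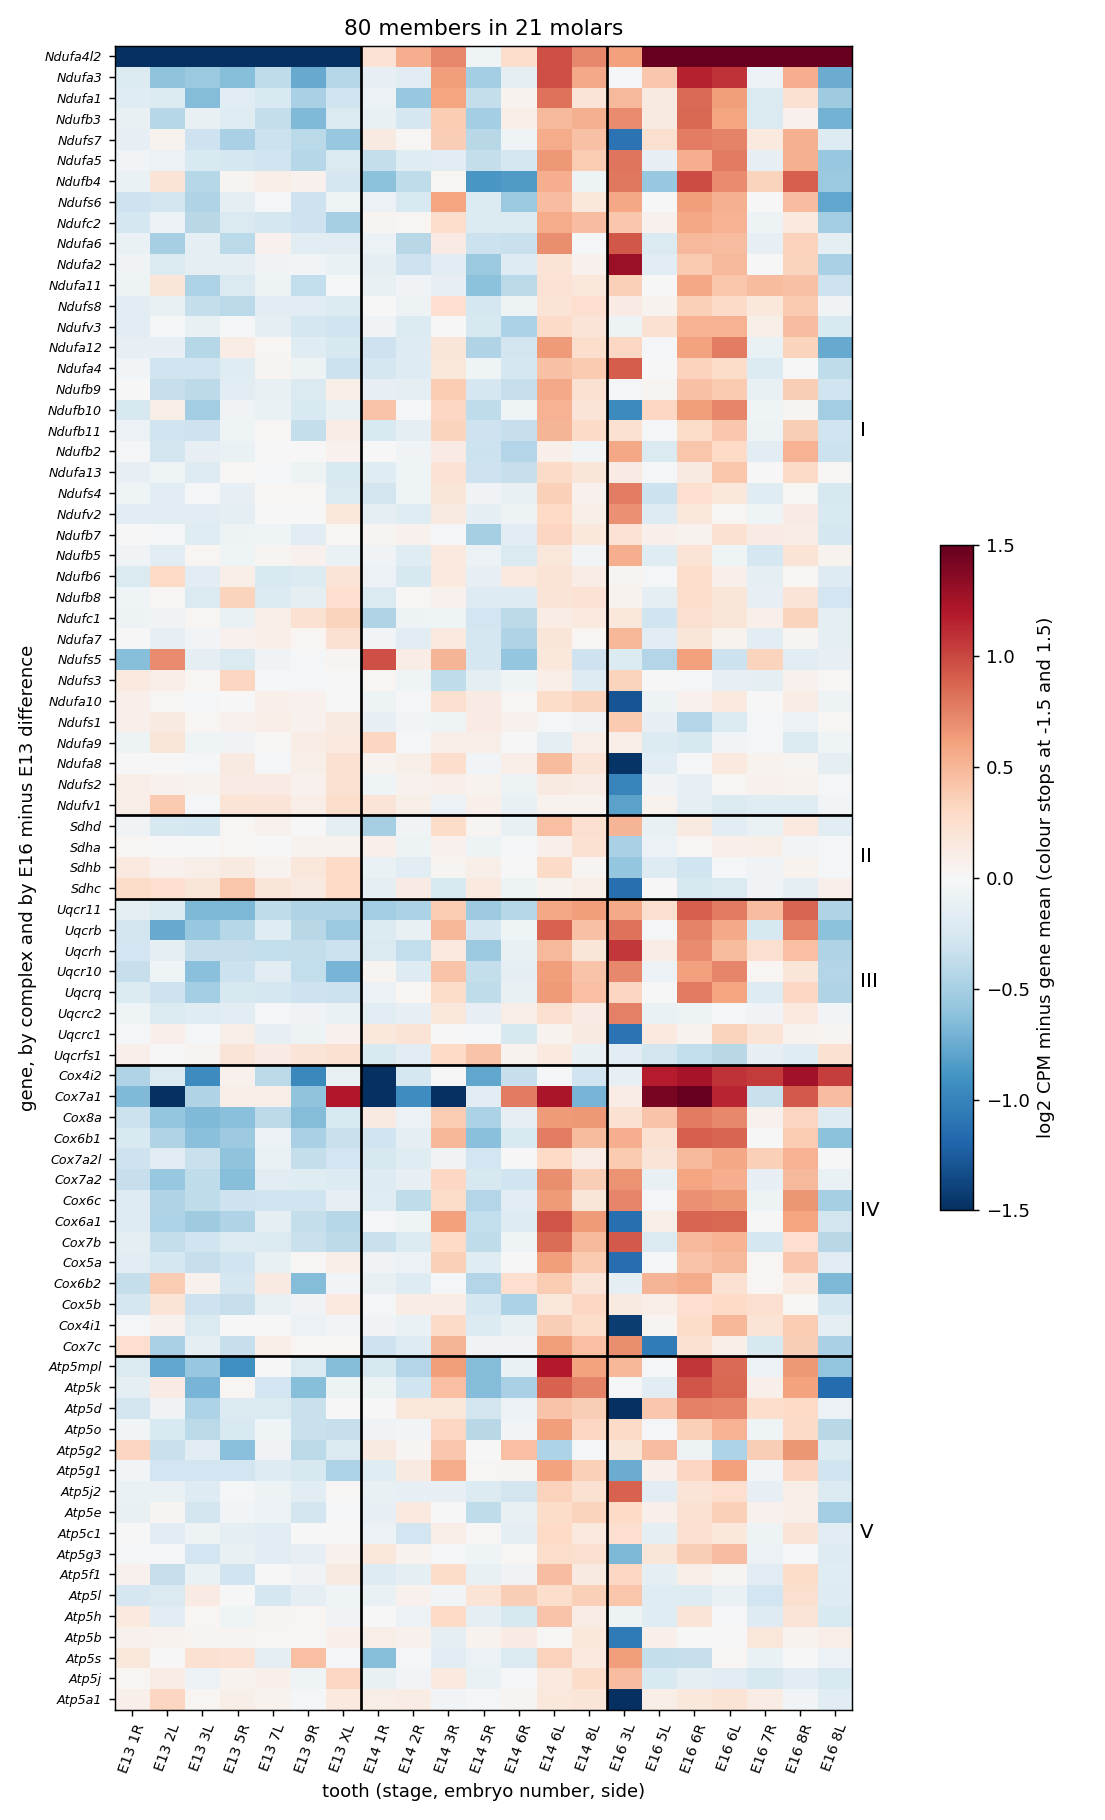
Log2 CPM of the 80 members that passed the filter (rows, grouped by complex I to V and sorted by the difference between E16 and E13) in the 21 teeth (columns, named by stage, embryo number, and side), as the difference from the mean of each gene over all teeth. X stands for the E13 tooth whose column gives no embryo number. Most members were high or low together in single teeth, as in the left tooth of embryo 6 at E14, while Ndufa4l2 and Cox4i2 followed the stage.

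To compare the spread between stages with the spread between teeth, the standard deviation (SD) of the 3 stage means and the pooled SD of teeth within a stage were calculated for each gene on log2 CPM. The SD between teeth had a median of 0.294 over the members and 0.291 over all genes tested. The SD between stages had a median of 0.154 over the members and 0.224 over all genes. The ratio of the SD between stages to that between teeth had a median of 0.589 over the members, from 0.0982 to 4.40, and 0.751 over all genes. Stages differed more than teeth in 7 of the 80 members (8.75%), and in 34.1% of all genes tested. Most members thus varied less from stage to stage than from tooth to tooth of the same stage. Without the left tooth of embryo 3 at E16 the numbers were 13 members (16.3%) and 44.4% of all genes. The share of members rose to 26.3% without the left tooth of embryo 8 at E16, with 35.6% of all genes. With median absolute deviations in place of SDs it was 32 members (40%) and 54.7% of all genes, and with the teeth of an embryo summed 18 members (22.5%) and 35.6% of all genes. In each of these the share of members was below that of all genes.

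**Figure D2:**
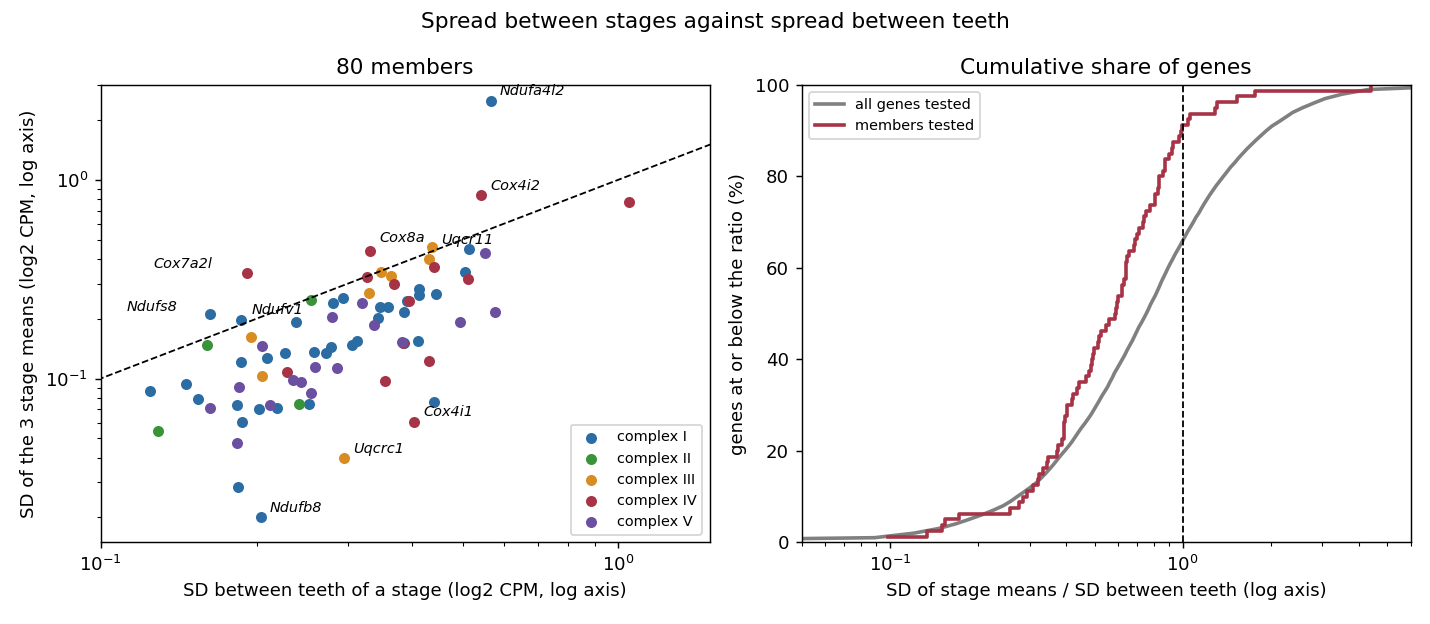
SD of the 3 stage means against the pooled SD between teeth of a stage for the 80 members, colored by complex, with equality as a dashed line, on log axes (left), and the cumulative share of members and of all genes tested against the ratio of the SDs (right). Only 7 members lie above the line, and at a ratio of 1 the line of the members is above that of all genes.

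The 7 members were Ndufa4l2 with a ratio of 4.40, Cox7a2l with 1.77, Cox4i2 with 1.53, Cox8a with 1.31, Ndufs8 with 1.29, Ndufv1 with 1.06, and Uqcr11 with 1.05. Ndufs8 is named after its values were seen. Between stages lay 95.0% of the variance of Ndufa4l2, 74.9% of that of Cox7a2l, and 68.9% of that of Cox4i2. In 17 members the estimated share of variance between stages was 0, and the lowest ratios among them were those of Ndufb8 (0.0982), Uqcrc1 (0.134), and Cox4i1 (0.150). Ndufb8, an accessory subunit of complex I, was measured at 20.3 to 29.7 CPM at E13, 20.3 to 27.4 CPM at E14, and 19.4 to 28.4 CPM at E16. Uqcrc1, a core protein of complex III, was measured at 96.8 to 112 CPM at E13, 89.7 to 122 CPM at E14, and 49.2 to 133 CPM at E16, where the lowest tooth was again the left of embryo 3. By complex, the median ratio was 0.592 for I, 0.672 for II, 0.863 for III, 0.678 for IV, and 0.420 for V, in which no member had a ratio above 1.

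The spread between teeth was itself different at the 3 stages. At E13 the median SD between teeth was 0.135 over the members and 0.197 over all genes, so that the members were closer together than most genes. At E14 it was 0.280 over the members and 0.232 over all genes, and at E16 it was 0.386 and 0.341. Without the left tooth of embryo 3, the values at E16 were 0.280 over the members and 0.203 over all genes. These differences were not tested.

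At E14 and E16 the members moved together in single teeth. The median of the members, relative to their means over the 21 teeth, was between -0.22 and -0.06 on the log2 scale in the E13 teeth. At E14 it was 0.37 in the left tooth of embryo 6, 0.19 in the left of embryo 8, and 0.17 in the right of embryo 3, and between -0.24 and -0.09 in the other 4 teeth. At E16 it was 0.38 and 0.35 in the left and right teeth of embryo 6, 0.27 in the left of embryo 3, and 0.24 in the right of embryo 8, and between -0.21 and -0.02 in the other 3 teeth. In the left tooth of embryo 3 the members did not move together, with 39 above the median of the stage and 30 below. The share of counts from the mitochondrial genome was 2.66% to 3.48% in the 3 high E14 teeth and 1.53% to 1.93% in the other 4, and that from protein-coding genes 89.9% to 91.2% and 84.9% to 88.7%. In the left tooth of embryo 8 at E16 these shares were 1.54% and 85.3%, where the medians of the stage were 2.99% and 88.4%. The protein-coding share at E16 was also low in the left tooth of embryo 3 (84.7%) and lowest in the right of embryo 7 (74.1%). The part of these shares in the members' levels was not tested. In the left tooth of embryo 6 at E14, 74 members were above the median of the stage and 4 below, and in the left tooth of embryo 8 at E16, 8 were above and 66 below. Left and right teeth of an embryo did not always resemble each other. The members' median absolute difference was 0.565 between the teeth of embryo 6 at E14 and 0.475 between those of embryo 8 at E16, and 0.105 between those of embryo 6 at E16. In pairs of teeth from different embryos it was 0.0950 to 0.185 at E13, 0.123 to 0.586 at E14, and 0.125 to 0.788 at E16.

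Genes with short mRNAs that are not members were high and low in the same teeth. The members have short mRNAs, with a median length of 721 nt against 2724 nt for the protein-coding genes tested, and 47 of the 84 members (56.0%) have an mRNA under 800 nt, against 4.04% of those genes. The median deviation of 545 other protein-coding genes with an mRNA under 800 nt was 0.33 in the left tooth of embryo 6 at E14, 0.36 and 0.31 in the right and left teeth of embryo 6 at E16, and -0.20 in the left tooth of embryo 8 at E16. In the E13 teeth it was between -0.17 and -0.08. For 80 ribosomal protein genes the median was 0.52 in the left tooth of embryo 6 at E14 and -0.39 in the left tooth of embryo 8 at E16. Among the members, those under 800 nt had a median of 0.52 in the left tooth of embryo 6 at E14 and -0.31 in the left tooth of embryo 8 at E16, and those of 800 nt or more had medians of 0.29 and -0.09. The SD between teeth had a median of 0.354 in the 43 shorter members tested and 0.229 in the 37 longer ones. The split at 800 nt was chosen after the data were seen.

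**Figure D3:**
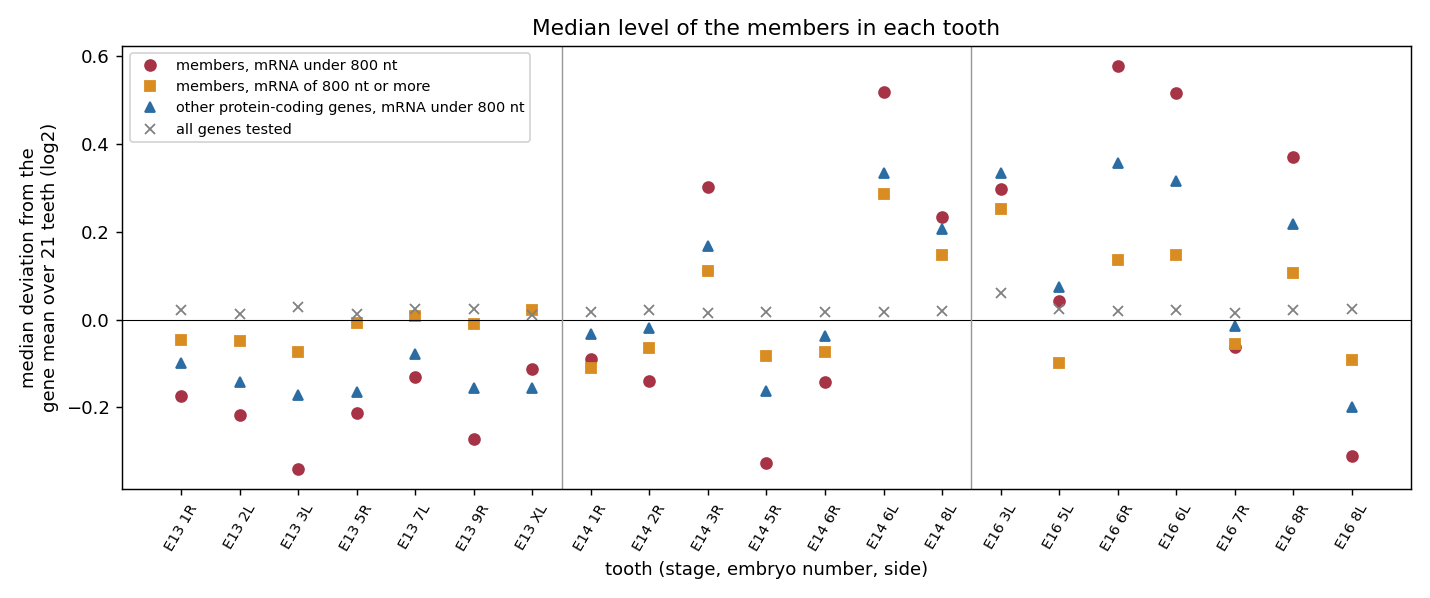
Median deviation of log2 CPM from the gene mean over the 21 teeth, for members with an mRNA under 800 nt, members with a longer mRNA, other protein-coding genes with an mRNA under 800 nt, and all genes tested, in each tooth. The shorter members reach 0.52 in E14 6L and -0.31 in E16 8L, and other short genes lie on the same side in both teeth. The scaling holds the median of all genes near 0.

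Differences between stages were tested for each gene with the quasi-likelihood test of edgeR over the 21 teeth, with p values adjusted by the Benjamini-Hochberg method over all 19101 genes, and a gene was called at an adjusted p below 0.05. From E13 to E14, 10 of 80 members rose (12.5%; 11.2% of all genes tested were called higher). No member fell (2 had an unadjusted p below 0.05, and DESeq2 called 0; 8.40% of all genes were called lower). From E14 to E16, 7 members rose (8.75%; 15% of all genes), and none fell (4 at an unadjusted p below 0.05, and 0 by DESeq2; 13.1% of all genes). When libraries were scaled on protein-coding nuclear genes other than the members, 5 rose and 3 fell in this step (2645 and 3024 of all 19101 genes). From E13 to E16, 28 members rose (35.0%; 21.6% of all genes) and 4 fell (5%; 19.6% of all genes). In the test for any difference between the stages, 29 of 80 members were called (36.3%; 45.7% of all genes). The share of members called was near or under the background in the single steps, and above it only among the genes higher at E16 than at E13. The median difference of the members was 0.15 from E13 to E14, 0.09 from E14 to E16, and 0.26 from E13 to E16 on the log2 scale, against -0.01, 0.00, and -0.01 over all genes. Without the left tooth of embryo 3 at E16, 15 members rose and 1 fell from E13 to E14, 7 rose and 2 fell from E14 to E16, and 31 rose and 6 fell from E13 to E16. Other single teeth moved the counts of the single steps as much. From E13 to E14, calls went from 10 to between 4 and 6 without the E13 tooth of embryo 2, 3, 5, or X (the tooth with no embryo number), and to 3, 2, and 3 without the E14 right tooth of embryo 3, left of 6, and left of 8. From E14 to E16 they went from 7 to 3, 3, and 13 without the E14 right tooth of embryo 5, right of 6, and left of 6, and to 4 and 13 without the E16 right tooth of embryo 6 and left of 8. Shares of all genes were not set beside the counts of the fits without 1 tooth, so these shifts cannot be read as particular to the members. The stage comparisons share their teeth and are not independent of each other.

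Members with short mRNAs made up most of the calls. From E13 to E16, 22 of the 43 shorter members rose and none fell (0 lower also at an unadjusted p below 0.05 and by DESeq2), with a median difference of 0.47. Of the 37 longer members 6 rose and 4 fell, with a median of 0.12. Among 545 other protein-coding genes with an mRNA under 800 nt, 33.4% were called higher from E13 to E16, with a median of 0.27, and of 80 ribosomal protein genes 35 were called higher, with a median of 0.32. When the median deviation of the 545 genes in each tooth was added to the fit as a covariate, which was done after the data were seen, 4 members were called higher (3150 of all 19101 genes in this fit) and 4 lower (2344 of all genes, 12.3%) from E13 to E16, and the median of the members was -0.10. From E13 to E14, 1 member was higher and 5 lower with this covariate (8.74% and 5.46% of all genes), with a median of -0.08, and from E14 to E16, 7 were higher and 0 lower (15.1% and 13.7% of all genes), with a median of -0.04. The 4 members that were higher at E16 than at E13 in both fits were Ndufa4l2, Cox4i2, Cox7a2l, and Cox8a. The 4 that fell in the fit without the covariate kept their direction but were not called with it, with differences of -0.26 for Ndufv1 (adjusted p = 0.0967), -0.26 for Sdhb (adjusted p = 0.0769), -0.28 for Sdhc (adjusted p = 0.149), and -0.14 for Uqcrfs1 (adjusted p = 0.41). The covariate itself had a median of -0.16 at E13, -0.02 at E14, and 0.22 at E16, so that part of it cannot be told apart from the stage.

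**Figure D4:**
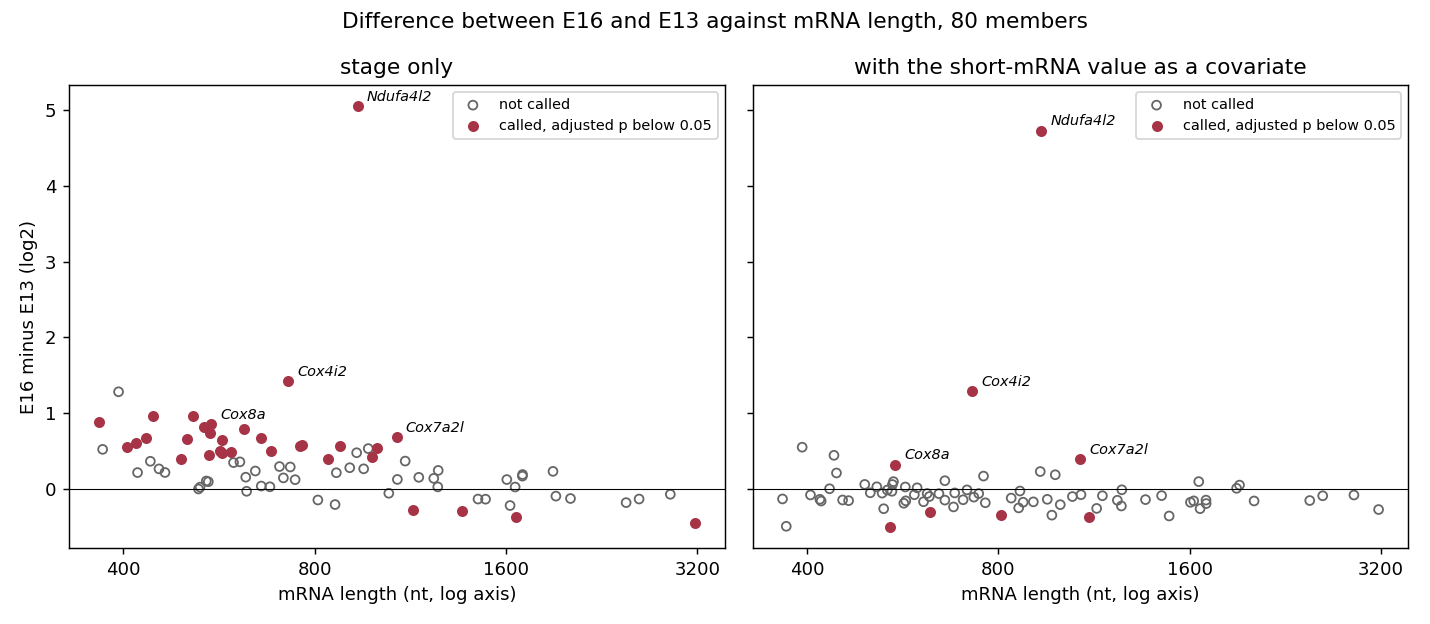
Log2 difference between E16 and E13 against mRNA length (log axis) for the 80 members, in the fit with stage alone (left) and with the median of other short mRNAs in each tooth as a covariate (right). Filled points passed an adjusted p below 0.05. On the left 28 members were called higher, mostly with short mRNAs, and on the right Ndufa4l2, Cox4i2, Cox7a2l, and Cox8a.

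In complex I, 4 of 37 members rose from E13 to E14, 4 from E14 to E16, and 13 from E13 to E16, and 1 fell from E13 to E16, beside 11.2%, 15%, and 21.6% of all genes called higher in these comparisons and 19.6% called lower in the last. The counts of the single steps are near or below these shares. The change of Ndufa4l2 was the largest of all members at each step. Ndufa4l2 encodes a relative of Ndufa4, which is now usually counted as a subunit of complex IV, and is known as a gene that low oxygen induces. It lies on chromosome 10 (GRCm38, chr10:127514967-127517154). Its level was 0.897 to 2.13 CPM at E13 with a median of 1.44 CPM, 9.60 to 19.6 CPM at E14 with a median of 14.6 CPM, and 15.4 to 73.7 CPM at E16 with a median of 52.1 CPM. Every E14 tooth was above every E13 tooth, and every E16 tooth but the left of embryo 3 was above every E14 tooth. The log2 difference was 3.19 ± 0.30 (SE; adjusted p = 6.04e-08) from E13 to E14, 1.86 ± 0.25 (adjusted p = 5.59e-06) from E14 to E16, and 5.06 ± 0.31 (adjusted p = 7.44e-12) from E13 to E16, or 33.3-fold. Without the left tooth of embryo 3 at E16 the difference from E14 to E16 was 2.04, and with the covariate for short mRNAs that from E13 to E16 was 4.73. Ndufa4 was measured at 28.0 to 36.1 CPM at E13, 29.2 to 47.6 CPM at E14, and 27.0 to 66.1 CPM at E16, and none of its differences was called (0.35 ± 0.15 from E13 to E16, adjusted p = 0.0689). Per length of mRNA, Ndufa4l2 was at 1.71 to 4.51 for each 100 of Ndufa4 in the E13 teeth, 18.6 to 31.0 in the E14 teeth, and 15.2 to 136 in the E16 teeth, with medians of 2.84, 26.8, and 98.7. The lowest E16 ratio, 15.2, was that of the left tooth of embryo 3, where Ndufa4l2 was lowest (15.4 CPM) and Ndufa4 highest (66.1 CPM).

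**Figure D5:**
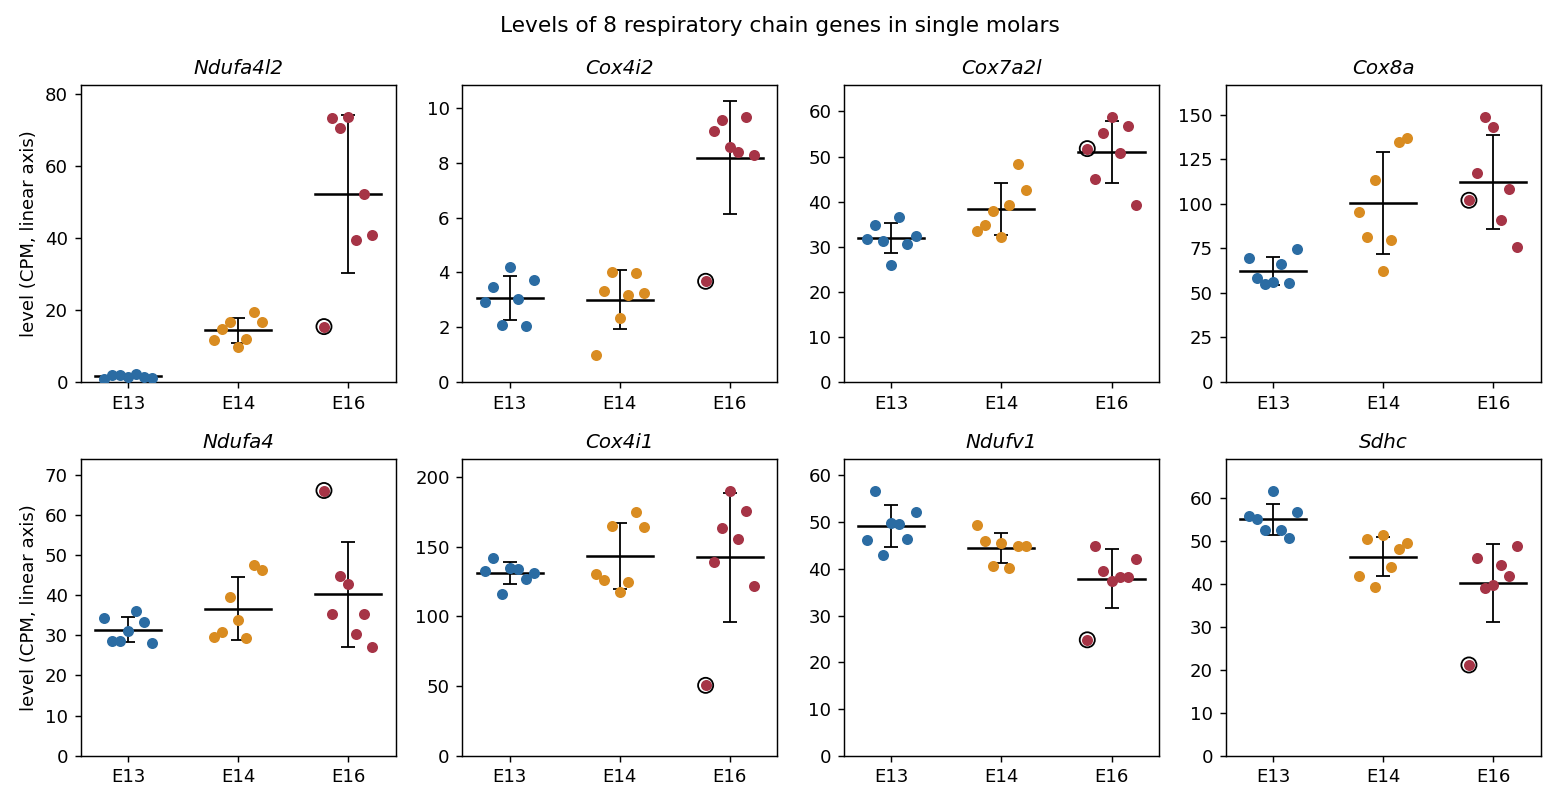
Levels (CPM, linear axes from 0) of 8 members in single teeth at E13, E14, and E16, with the mean and SD of the 7 teeth of each stage in black. Rings mark the left tooth of embryo 3 at E16. Ndufa4l2 rises at both steps and Cox4i2 only between E14 and E16, while the ranges of Ndufa4 and Cox4i1 overlap between stages.

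The other members of complex I moved much less. Ndufa3 was measured at 23.7 to 34.6 CPM at E13, 27.9 to 78.3 CPM at E14, and 23.7 to 89.2 CPM at E16, with medians of 27.0, 36.8, and 53.0 CPM, which overlap at all stages, and rose by 0.77 ± 0.26 (adjusted p = 0.0389) from E13 to E14 and by 0.97 ± 0.26 (adjusted p = 0.00441) from E13 to E16. With the covariate for short mRNAs the difference from E13 to E16 was 0.03 (adjusted p = 0.931). Ndufb4 and Ndufa2, 2 further accessory subunits, rose by 0.73 ± 0.24 (adjusted p = 0.0265) and 0.50 ± 0.18 (adjusted p = 0.0368) from E14 to E16. Ndufa2 was measured at 11.6 to 19.7 CPM at E14 and 12.1 to 41.4 CPM at E16, and without the left tooth of embryo 3 at E16 its difference was 0.29 and was not called. Of the 84-base windows of Ndufb4 mRNA, 34.6% also occur in other genes, so its reads may not all have been counted. Of the 7 core subunits, which are shared with the bacterial enzyme, 2 were higher and 1 was lower from E13 to E16 (21.6% and 19.6% of all genes). Ndufs8, an iron-sulfur subunit, was measured at 26.2 to 32.0 CPM at E13, 28.8 to 41.4 CPM at E14, and 33.4 to 45.4 CPM at E16, with medians of 30.7, 34.6, and 38.9 CPM. All its E16 teeth were above all E13 teeth, with a rise of 0.42 ± 0.09 (adjusted p = 0.000514). Ndufv1, the NADH-binding subunit, was measured at 42.9 to 56.8 CPM at E13, 40.2 to 49.4 CPM at E14, and 24.8 to 45.0 CPM at E16, with medians of 49.5, 44.9, and 38.2 CPM. The E13 and E16 teeth overlapped only slightly. It fell by 0.37 on the log2 scale from E13 to E16 (SE 0.10, adjusted p = 0.0027), and by 0.28 without the left tooth of embryo 3 at E16.

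Complex II, succinate dehydrogenase, had no member that rose from E13 to E16 (0 also at an unadjusted p below 0.05 and by DESeq2; 21.6% of all genes were called higher) and 2 of 4 that fell (19.6% of all genes). Sdhc, a membrane anchor, was measured at 50.7 to 61.7 CPM at E13, 39.3 to 51.4 CPM at E14, and 21.1 to 48.7 CPM at E16, with medians of 55.1, 48.1, and 41.9 CPM. The E16 teeth were all below the E13 teeth, and the level fell by 0.45 on the log2 scale (SE 0.12, adjusted p = 0.0031). Without the left tooth of embryo 3, which was lowest, it fell by 0.33 on the log2 scale and was still called. Sdhb was measured at 56.0 to 66.5 CPM at E13 and 36.2 to 56.4 CPM at E16 and fell by 0.28 on the log2 scale (SE 0.09, adjusted p = 0.0109), and by 0.21 without the left tooth of embryo 3 at E16, its lowest.

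In complex III all 5 small subunits rose from E13 to E16 (21.6% of all genes), and of the other 3 members, the Rieske protein and both core proteins, 1 fell (19.6% of all genes). Uqcr11 was measured at 10.1 to 14.7 CPM at E13, 11.2 to 25.1 CPM at E14, and 11.9 to 30.4 CPM at E16, with medians of 11.9, 12.1, and 24.1 CPM, and rose by 0.96 ± 0.21 (adjusted p = 0.000691). Uqcrb, which helps to bind quinone, was measured at 18.2 to 27.4 CPM at E13, 25.9 to 57.4 CPM at E14, and 20.2 to 54.4 CPM at E16. It rose by 0.67 ± 0.21 (adjusted p = 0.0242) from E13 to E14 and by 0.82 ± 0.21 (adjusted p = 0.00276) from E13 to E16. Uqcrh was measured at 42.0 to 49.4 CPM at E13, 37.1 to 76.5 CPM at E14, and 39.7 to 113 CPM at E16, and rose by 0.46 ± 0.17 (adjusted p = 0.0425) from E14 to E16. Without the left tooth of embryo 3 at E16 this difference was 0.34 and was not called. The ranges of E13 and E16 overlapped in each of these 3 genes. Uqcrfs1, the Rieske iron-sulfur protein, was measured at 38.6 to 45.1 CPM at E13 and 28.9 to 45.3 CPM at E16 and fell by 0.30 on the log2 scale (SE 0.10, adjusted p = 0.0236). With the covariate for short mRNAs none of the 5 small subunits was called from E13 to E16, and their median difference was 0.00 in place of 0.74.

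In complex IV, cytochrome c oxidase, 8 of 14 tested members rose from E13 to E16, and none fell (0 also at an unadjusted p below 0.05 and by DESeq2). Of all genes tested 21.6% were called higher in this comparison and 19.6% lower. Cox4i2, the isoform of subunit 4 that is known from lung and from cells at low oxygen, lies on chromosome 2 (GRCm38, chr2:152754173-152765037). It was measured at 2.04 to 4.20 CPM at E13 with a median of 3.03 CPM, 0.969 to 4.03 CPM at E14 with a median of 3.27 CPM, and 3.68 to 9.69 CPM at E16 with a median of 8.59 CPM. All E16 teeth but the left of embryo 3 were above all earlier teeth. The difference was -0.02 ± 0.25 (adjusted p = 0.967) from E13 to E14 and 1.44 ± 0.24 (adjusted p = 4.75e-05) from E14 to E16, and the latter was 1.58 without the left tooth of embryo 3. Cox4i1 was measured at 116 to 141 CPM at E13, 117 to 175 CPM at E14, and 50.4 to 190 CPM at E16 and was not called at any step (0.12 ± 0.18 from E13 to E16, adjusted p = 0.63). Per length of mRNA, Cox4i2 stood at 1.64 to 3.19 for each 100 of Cox4i1 at E13, 0.763 to 2.70 at E14, and 4.63 to 7.47 at E16, and in this ratio the E16 teeth did not overlap the earlier ones. The highest ratio, 7.47, was that of the left tooth of embryo 3, where Cox4i1 was lowest, at 50.4 CPM. Cox4i2 in this tooth, at 3.68 CPM, lay within the range of the E13 teeth.

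Cox7a2l, which takes part in joining complexes III and IV into supercomplexes, was measured at 26 to 36.6 CPM at E13, 32.2 to 48.4 CPM at E14, and 39.2 to 58.8 CPM at E16, with medians of 31.7, 38.0, and 51.8 CPM. All E16 teeth were above all E13 teeth, and the teeth of E14 overlapped both. The difference was 0.27 ± 0.10 (adjusted p = 0.0632) from E13 to E14, 0.41 ± 0.10 (adjusted p = 0.00271) from E14 to E16, and 0.68 ± 0.10 (adjusted p = 5.12e-06) from E13 to E16. Cox8a, the common isoform of subunit 8, was measured at 54.9 to 74.4 CPM at E13, 62.4 to 137 CPM at E14, and 75.8 to 149 CPM at E16, with medians of 58.4, 95.6, and 108 CPM, again with no overlap between E13 and E16. It rose by 0.69 ± 0.16 (adjusted p = 0.0031) from E13 to E14 and by 0.85 ± 0.16 (adjusted p = 0.000133) from E13 to E16. With the covariate for short mRNAs the differences from E13 to E16 were 0.39 (adjusted p = 0.00176) for Cox7a2l and 0.31 (adjusted p = 0.048) for Cox8a. Cox6a1, Cox6b1, Cox7a2, and Cox7b, the common isoforms of their subunits, rose by 0.64, 0.79, 0.67, and 0.53 from E13 to E16 with SEs of 0.16 to 0.25. The call of Cox6a1 (adjusted p = 0.045) was lost in 14 of 31 alternatives and that of Cox7b (adjusted p = 0.031) in 8, of which 1 turned its direction. None of these 4 was called with the covariate, and without the left tooth of embryo 3 at E16 the difference of Cox7b was 0.40 and was not called.

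Cox6a2, Cox7b2, Cox8b, and Cox8c, isoforms known from muscle or testis, were near the limit of detection. Cox8c, known from testis, had 0 counts in all 21 teeth, where 3 counts, the limit that a count of 0 allows, correspond to 0.11 to 0.16 CPM. Cox6a2 had 0 to 9 counts in a tooth and was above 0 in 5 teeth, Cox8b had 0 to 7 counts and was above 0 in 3 teeth, and Cox7b2, known from testis, had 0 to 5 counts and was above 0 in 6 teeth. Of the 14 counts of Cox8b, the muscle isoform of subunit 8, 7 came from the E13 tooth of embryo 7 and 6 from the right tooth of embryo 6 at E16. Of the 24 counts of Cox6a2, the muscle isoform of subunit 6a, 9 came from the left tooth of embryo 6 at E14, 6 from the E13 tooth of embryo 7, and 5 from the E13 tooth with no embryo number. In the E13 tooth of embryo 7 and the right tooth of embryo 6 at E16, 15 markers of skeletal muscle summed to 1432 and 187 CPM, the highest values of their stages, where the median was 51.4 CPM at E13 and 51.2 CPM at E16. They summed to 81.3 CPM in the left tooth of embryo 6 at E14, where the highest value of the stage was 84.3 CPM. In the tooth with no embryo number they summed to 44.0 CPM, the lowest value at E13. At E16, Cox6a2 had 2 counts each in the left tooth of embryo 3 (78.3 CPM of these markers) and the right of embryo 6. The part of muscle in these counts was not tested. Cox7a1, the muscle isoform of subunit 7a, had 1 to 53 counts in a tooth and a difference of 1.28 ± 0.56 from E13 to E16 (adjusted p = 0.0699). Cox6b2, known from testis, was measured in every tooth at 4.66 to 11 CPM and differed by 0.21 ± 0.18 (adjusted p = 0.357), while 3 of the 4 germ cell markers did not pass the filter and the 4 together summed to 0.22 to 1.35 CPM.

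In complex V, 1 of 17 members rose from E13 to E14 (11.2% of all genes), none was called from E14 to E16 (0 also at an unadjusted p below 0.05 and by DESeq2), and 2 rose from E13 to E16 (21.6% of all genes). These counts are below the shares of all genes. Atp5b was measured at 425 to 444 CPM at E13, 384 to 472 CPM at E14, and 202 to 475 CPM at E16 and differed by -0.10 ± 0.12 from E13 to E16 (adjusted p = 0.537). Its lowest value again came from the left tooth of embryo 3. The c subunit of the rotor is encoded by 3 genes for the same mature protein. Atp5g1 was measured at 31.2 to 42.0 CPM at E13 and 37.9 to 65.4 CPM at E14 and rose by 0.50 ± 0.15 (adjusted p = 0.0225), and Atp5g3 (0.19 ± 0.12, adjusted p = 0.266) and Atp5g2 (0.29 ± 0.17, adjusted p = 0.24) were not called. For each 100 of Atp5g3 per length of mRNA there were 49.7 to 72.3 of Atp5g1 at E13, 56.5 to 108 at E14, and 66.4 to 91.7 at E16, and 14.3 to 49.5 of Atp5g2 over all teeth. All of the 84-base windows of Atp5g2 and 58.7% of those of Atp5g1 also occur in other genes, and the levels of both are uncertain for this reason. In the second table the E13 medians were 137 CPM for Atp5g1, 75.7 CPM for Atp5g2, and 77.0 CPM for Atp5g3. There Atp5g1 was thus above Atp5g3. Atp5mpl and Atp5o, the members that rose from E13 to E16, did so by 0.88 ± 0.28 (adjusted p = 0.0143) and 0.39 ± 0.13 (adjusted p = 0.0212) and are named after their values were seen. Of the 84-base windows of Atp5o, 36.0% also occur in other genes, so its level is uncertain too. In the second table the difference of Atp5o was 0.44 and was not called.

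Promoters were read from RefSeq (build GRCm38.p6), 250 bases before to 50 bases after the start of each gene, and 66 of the 84 members had an entry. Ndufa4l2 and Cox4i2 were among those without one. The start used for Cox7a2l lies inside the gene as the GRCm38 annotation gives it (chr17:83501918-83517330). The promoters of Cox7a2l and Cox8a, the members with the highest ratio of stage to tooth spread among those with an entry, and of Ndufb8 and Uqcrc1, those with the lowest, are shown 5′ to 3′ on the strand of the gene, with matches to 3 motifs in capitals.
Cox7a2l, chr17:83514284-83514583, minus strand: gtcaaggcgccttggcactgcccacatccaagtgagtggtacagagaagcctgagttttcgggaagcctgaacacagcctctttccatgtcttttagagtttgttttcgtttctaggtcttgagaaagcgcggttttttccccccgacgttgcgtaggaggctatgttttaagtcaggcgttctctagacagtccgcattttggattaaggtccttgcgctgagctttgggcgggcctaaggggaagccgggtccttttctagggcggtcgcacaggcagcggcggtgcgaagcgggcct
Cox8a, chr19:7217567-7217866, minus strand: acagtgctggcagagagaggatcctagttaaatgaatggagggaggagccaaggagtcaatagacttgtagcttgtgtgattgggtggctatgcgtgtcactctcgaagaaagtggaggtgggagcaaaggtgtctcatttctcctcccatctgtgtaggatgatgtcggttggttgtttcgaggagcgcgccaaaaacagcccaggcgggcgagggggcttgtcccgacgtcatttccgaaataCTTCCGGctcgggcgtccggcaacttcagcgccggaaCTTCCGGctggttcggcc
Ndufb8, chr19:44555393-44555692, minus strand: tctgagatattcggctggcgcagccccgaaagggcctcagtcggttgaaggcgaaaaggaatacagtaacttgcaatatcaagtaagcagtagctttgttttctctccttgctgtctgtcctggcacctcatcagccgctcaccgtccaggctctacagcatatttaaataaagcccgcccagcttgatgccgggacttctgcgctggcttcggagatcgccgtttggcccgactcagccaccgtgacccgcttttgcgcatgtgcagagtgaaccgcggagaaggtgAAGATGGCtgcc
Uqcrc1, chr9:108936398-108936697, plus strand: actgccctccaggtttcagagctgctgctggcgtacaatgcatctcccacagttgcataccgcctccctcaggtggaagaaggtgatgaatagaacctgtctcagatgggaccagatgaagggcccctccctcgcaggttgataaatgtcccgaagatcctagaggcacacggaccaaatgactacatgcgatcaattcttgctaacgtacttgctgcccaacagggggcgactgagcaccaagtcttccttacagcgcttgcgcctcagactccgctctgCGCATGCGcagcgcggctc
The motifs were CGCATGCG, the core bound by NRF1, CCGGAAG, bound by ETS factors such as GABP (NRF2), and AAGATGGC, bound by YY1, the factors best known for genes of the respiratory chain, and were searched on both strands. The promoter of Cox8a had 2 ETS matches, that of Ndufb8 1 YY1 match, and that of Uqcrc1 1 NRF1 match, while that of Cox7a2l had none of these letters in the window. NRF1 matches were found in 9 of the 66 members (13.6%), 2.89% of the 16521 protein-coding genes, and 2.07% of all 27025 genes in the table, ETS matches in 16 (24.2%), 13.4%, and 9.93%, and YY1 matches in 9 (13.6%), 3.64%, and 3.19%, and in no member did an ETS match overlap a YY1 match. At least 1 of the 3 occurred in 28 members. Of the 21 members with an entry that rose from E13 to E16, 3 had the NRF1, 6 the ETS, and 3 the YY1 motif, against 6, 10, and 6 of the 43 tested members that did not rise.

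Other genes of the same pathway were counted for comparison, from lists chosen with earlier results of these data known. Of 13 subunits encoded by the mitochondrial genome 7 passed the filter, and 6 rose from E13 to E14 (11.2% of all genes), none was called from E14 to E16 (0 also at an unadjusted p below 0.05 and by DESeq2), and 7 rose from E13 to E16 (21.6% of all genes), with a median difference of 1.17. The other 6, among them mt-Co2, mt-Co3, and mt-Atp6, are listed at or near 0 in these counts although every cell with mitochondria uses them. Genes of the mitochondrial genome took 1.15% to 1.93% of the counts in the E13 teeth, 1.53% to 3.48% at E14, and 1.54% to 4.44% at E16. With the covariate for short mRNAs none of the 7 was called from E13 to E16. Of 43 assembly factors, which build the complexes without being part of them, 1 rose and 8 fell from E13 to E16, with a median of -0.08, where 21.6% of all genes were called higher and 19.6% lower. The share that fell is thus near that of all genes. The largest of these falls was that of Coa7, by 0.65 on the log2 scale. Of 14 genes for replication and expression of mitochondrial DNA, 5 fell and none rose (0 at an unadjusted p below 0.05 and by DESeq2), among them Tsfm, Lrpprc, and Twnk, by 0.54, 0.47, and 0.38 on the log2 scale. Of 16 genes of the citric acid cycle 3 rose and 3 fell, and of 13 regulators of mitochondrial biogenesis 3 rose and 4 fell, against the same shares of all genes. From E14 to E16, 1 of the 13 regulators rose and 4 fell (15% and 13.1% of all genes). The regulator that rose in this step was Ppargc1a, the coactivator PGC-1alpha, by 1.32 (adjusted p = 2.13e-08). Its level was 5.14 to 7.16 CPM at E14 and 12.1 to 17.3 CPM at E16.

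Beside Ndufa4l2 and Cox4i2, 2 lists were counted. Of 13 targets of the low-oxygen response, 2 rose and 1 fell from E13 to E14 (11.2% and 8.40% of all genes). From E14 to E16, 6 rose (15% of all genes). From E13 to E16, 8 rose (21.6% of all genes), with Ndrg1, Adm, and Bnip3 higher by 2.34, 2.17, and 0.91. Ndrg1 was measured at 9.03 to 15.2 CPM at E13, 20.5 to 31.0 CPM at E14, and 36.1 to 71.3 CPM at E16, with no overlap between stages. Car9, another target, was at 0.106 to 2.11 CPM over all teeth and was not called. Ndufa4l2 is also known as a marker of pericytes. Of 7 pericyte markers 6 passed the filter, of which 3 rose from E13 to E14 (11.2% of all genes). From E14 to E16, 2 rose and 1 fell (15% and 13.1% of all genes). From E13 to E16, 3 rose (21.6% of all genes) and none fell (1 at an unadjusted p below 0.05, and 0 by DESeq2). The list summed to 547 to 678 CPM at E13, 643 to 755 CPM at E14, and 379 to 719 CPM at E16, where the lowest value was that of the left tooth of embryo 3 and the other 6 teeth were at 598 to 719 CPM. Kcnj8 rose by 3.25 and Abcc9 by 2.07 from E13 to E16, Pdgfrb fell by 0.70 on the log2 scale from E14 to E16, and Higd1b had 0 counts in every E13 tooth. The part of either list in the changes of Ndufa4l2 and Cox4i2 was not tested.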

How the data were processed

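RNA-seq was analysed in single molar tooth germs. Per the study's methods, the authors filtered reads of 84 bases, aligned them to GRCm38 with STAR, and counted them per gene with HTSeq; the mode and strand setting are not given in the sources used here. The deposited HTSeq table holds raw counts of 52636 genes in 21 teeth, of which 233 identifiers were not in the annotation used. A second deposited table holds estimated counts from salmon for 14185 genes, already whole numbers, with E15 teeth. 1 E13 column gives no embryo number and was matched to its stage only.

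Counts were fitted with edgeR 4.0.16 in R 4.3.3 (TMM, filterByExpr, robust quasi-likelihood with stage as factor, Benjamini-Hochberg adjustment over all genes tested). Log2 CPM used a prior count of 1. DESeq2 1.42.0, other scalings, filters, covariates, and leaving out each tooth were alternatives. Scripts were tested on simulated data. The common biological coefficient of variation was 21.2%. Members and lists were chosen with earlier results of these data known. Genes were named by rule: both genes of each isoform pair, the 4 largest called rises and falls for each comparison, the 3 highest and 3 lowest shares of variance between stages (ties at 0 by the lowest ratio), the highest level per length in each complex, and up to 3 genes of a list with the largest called change, plus genes set beside a member. Others are said to be chosen after their values were seen. The limit for a count of 0 covers counting error only. Motifs were searched in RefSeq promoter sequences of GRCm38.p6, matched by symbol.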

Additional observations from a re-analysis of the deposited data

Results flagged for a closer look

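In each stage, the lowest or highest tooth was compared with the others by Dixon's criterion for the named members and the sums of each complex, on the log scale. Of 102 groups of 7 teeth, 11 stood apart, and chance alone marks about 1 in 20. In 8 of the 11 it was the left tooth of embryo 3 at E16 that was lowest, with 50.4 CPM for Cox4i1, 3.68 CPM for Cox4i2, 15.4 CPM for Ndufa4l2, 21.1 CPM for Sdhc, 24.8 CPM for Ndufv1, 49.2 CPM for Uqcrc1, and 201.8 CPM for Atp5b, and 214.9 CPM for the sum of complex II. In this tooth members with low GC content were higher than in the other E16 teeth by a median of 0.50 on the log2 scale and those with high GC content differed by -0.16, and the same medians were 0.20 and -0.64 in other protein-coding genes. The part of GC content in the values of this tooth was not tested.

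The other 3 lay elsewhere. Cox4i2 was lowest in the right tooth of embryo 1 at E14, with 0.969 CPM, Uqcrh was highest in the left tooth of embryo 2 at E13, with 49.4 CPM, and the sum of complex III was lowest in the left tooth of embryo 3 at E13, with 328.2 CPM.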

How the results depend on the processing

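Of 29 named differences, 29 kept direction and call with DESeq2 and with its size factors, 28 with teeth of an embryo summed, 27 with side as a covariate, 26 with library totals, 23 when scaled on protein-coding nuclear genes other than the members, and 21 with all genes with any count tested, and the others kept their direction. Of 13 that could be compared, 11 kept the call in salmon counts. The differences named for Ndufa4l2, Cox4i2, and Cox7a2l, and that of Cox8a from E13 to E16, kept their call in every alternative run for them. The calls lost most often were those of Cox6a1 from E13 to E16 (14 of 31 alternatives), Cox7a2 and Ndufa3 from E13 to E14 (13 and 12 of 30), Uqcrh and Ndufa2 from E14 to E16 (13 and 10 of 30), and Uqcrfs1 from E13 to E16 (10 of 31). Among fits without 1 tooth, 546 values kept their call and 63 did not pass.

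With the covariate for short mRNAs, 10 kept direction and call, 15 kept direction only, and 4 turned, to -0.16 for Ndufa2, -0.0179 for Uqcrb, -0.21 for Cox7b, and -0.0634 for Cox6b1 from E13 to E16. The median of the members turned to -0.0796 from E13 to E14, -0.0366 from E14 to E16, and -0.10 from E13 to E16. Calls with it numbered 6 from E13 to E14 (1 higher and 5 lower), 8 from E13 to E16 (4 higher and 4 lower), and 11 for any stage.

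From E13 to E14 the members called higher were 6 with library totals and 4 with all genes with any count tested. From E14 to E16, scaling on other protein-coding nuclear genes gave 3 lower. From E13 to E16 salmon counts gave 17 calls, 14 of them higher, among fewer members. The number with a larger spread between stages than between teeth was 32 with median absolute deviations (40% of members, 54.7% of all genes) and 18 with the teeth of an embryo summed (22.5% and 35.6%). The cause of these shifts was not tested.

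Without 1 tooth, calls ranged from 2 to 16 from E13 to E14 (2 to 15 higher, 0 to 1 lower), from 3 to 13 from E14 to E16 (3 to 13 higher, 0 to 2 lower), from 26 to 44 from E13 to E16 (23 to 40 higher, 3 to 6 lower), and from 21 to 36 for any stage, and the spread count from 6 to 21. Shares of all genes called in these fits were not set beside these counts. Medians of the members ranged from 0.08 to 0.17, 0.05 to 0.17, and 0.25 to 0.34. Calls from E13 to E14 were 6, 5, 5, and 4 without the E13 teeth of embryos 2, 3, 5, and X, 3, 2, and 3 without E14 right of embryo 3, left of 6, and left of 8, and 16 without E16 left of embryo 3. Calls from E14 to E16 were 3, 3, and 13 without E14 right of embryo 5, right of 6, and left of 6, and 4 and 13 without E16 right of embryo 6 and left of 8.

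Embryo numbers are labels within a stage, and teeth of different stages come from different embryos, so the numbers do not pair the teeth. Of 15 same-numbered pairs 3 had a correlation of deviations over 0.1 (range -0.088 to 0.183). No pairs with different numbers were set beside them, so these values cannot decide the question. With the embryo number as a replicate block, which joins teeth of different embryos, calls were 1 from E13 to E14 (1 higher), 9 from E13 to E16 (6 higher and 3 lower), and 7 for any stage, and 12 of the named differences kept their call. Depth limits mainly Cox6a2, Cox7b2, Cox8b, Cox8c, and Cox7a1.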

Other observations

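E15 teeth, with 6 columns for 7 samples, were measured only in the salmon table and entered no comparison of the stages above. This table lists 62 members. Ndufa4l2 was at 1.07 to 2.29 CPM at E13 with a median of 1.68 CPM, 17.9 to 73.6 CPM at E15 with a median of 44.7 CPM, and 19.9 to 84 CPM at E16 with a median of 59.9 CPM. The E15 and E16 teeth overlapped over most of their range. Cox4i2 was at 2.04 to 4.79 CPM at E13, 4.35 to 9.44 CPM at E15, and 4.73 to 11.2 CPM at E16, with medians of 3.47, 5.82, and 9.96 CPM. Cox4i1 had medians of 155, 187, and 183 CPM at the same stages. Over 61 members tested, the E15 median lay between those of E13 and E16 in 29, and the sign of the difference between E16 and E13 was the same as in the HTSeq counts in 60. The exception was Atp5h. On these 61 members the salmon counts called 14 higher and 3 lower and the HTSeq counts 18 higher and 4 lower.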
